A study of Mus musculus with 8 samples.

Results

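Part of the mouse expression array used in this study carries probes that the scanner files name by a stretch of the mm9 genome and a strand suffix, F or R, in place of a transcript. The values described here are those of the interval probes that read well above background on all 8 arrays. There were 6735 such probes among 16181 interval probes with a suffix (41.6%) and 55681 non-control probes in all, and they lay in 2526 of 3540 intervals (71.4%). The probes were chosen by the scanner's above-background flag on every array. That rule did not use the difference between the groups, but it is not independent of it, since a faint probe drops out through the group in which it is lower. A further 13 interval probes, in 3 intervals, carry no suffix and were left out, 7 of them above background on all 8 arrays.

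The arrays measured RNA of mouse mammary tumours raised from the established carcinoma line 4T1. Before injection the line was exposed for 24 h (multiplicity of infection 50) to adenovirus carrying PRH (4 arrays) or to empty adenovirus (4 control arrays). Tumours grew in the no. 3 fat pad of female BALB/C mice aged 6 to 8 weeks and were taken on day 22, and 50 ng of RNA entered each labelling with Cy3. Both groups therefore share the tumour line, the host strain and exposure to adenovirus, and each group carries the mouse numbers 1, 2, 3 and 5. The line is 1 established culture, and the vector had been given to the cells before they were injected. The labels differ on the material: the design text speaks of tumour RNA, the extraction protocol of endothelial isolates. Whole tumour and isolated endothelium could not be told apart from the labels.

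PRH is a homeodomain transcription factor, the protein of Hhex, known mainly as a repressor of transcription in blood, liver and endothelial development. Arrays of this kind carry interval probes to sample transcription outside annotated genes, where long noncoding RNAs, unannotated exons and antisense transcripts arise. Long noncoding RNAs are typically less abundant and more restricted to particular cell types than messenger RNAs. The files say neither what transcript an interval holds nor which genomic strand F or R denotes, so each probe is given here by its position alone. No mm9 sequence was used, and none is printed.

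All 8 arrays were on 1 slide, with controls in slide column 2 and PRH-labelled arrays in slide column 1, so column and group cannot be told apart. The scanner software applied a spatial correction, its multiplicative detrending, to the 4 control arrays alone; it multiplied single spots by 0.778 to 1.29. No spot was saturated. The Hhex probe A_52_P528600 read -0.54, -0.33, -0.69 and -0.78 in control 1, 2, 3 and 5 and -1.71, -1.46, -1.79 and -1.72 on the PRH-labelled arrays (log2 level scaled to each array's 75th percentile). Hhex was thus lower, by 1.09 (SE 0.149, adjusted p = 0.00686, limma), on the arrays labelled for exposure to PRH. Whether this probe reads the PRH of the vector, or the vector lasted until harvest, was not tested. The probe therefore could not check the labels, and higher and lower refer throughout to the labelled groups. Lists of epithelial (8 genes), endothelial (9), leukocyte (5 on the array) and fibroblast (5) markers read above background on all 8 arrays throughout. Of 4 adipocyte markers 1 did, with Adipoq, Plin1 and Lep missing on some arrays, and of 4 skeletal muscle markers 3 did. One epithelial and 1 endothelial marker were called higher, 1 leukocyte and 1 fibroblast marker lower, and no adipocyte or muscle marker was called. The part of these cell types in the interval values was not tested.

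Most of the well-detected interval probes were dim. Their mean signal, the geometric mean of the processed intensity over 8 arrays, ranged from 26.8 to 214609 with a median of 171, against a median of 976.3 for probes of curated mRNAs (accessions starting with NM_) detected on all 8 arrays. The signal was under 100 for 31.5% of them, over 1000 for 858 (12.7%) and over 10000 for 131. The detection requirement gave the set its edge: 932 interval probes were above background on 7 arrays, with mean signals of 23.1 to 353 and a median of 47, and 3138 (19.4% of all) on none. Just inside that edge, A_30_P01033622 at chr2:35828611-35838083 (R) read 30.1, 35.4, 39.2 and 26.7 on the control arrays and 17.7, 22.4, 21.4 and 27.9 on the PRH-labelled arrays. Just outside it, A_30_P01022025 at chr2:50917152-50917519 (F) read 412, 20.9, 270 and 317 on the control arrays and 593, 443, 561 and 449 on the others. It missed the set through control 2 alone.

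Detection itself was uneven between the groups. Of the 16181 interval probes, 58.0%, 51.2%, 54.9% and 54.4% were above background on control 1, 2, 3 and 5, and 65.1%, 66.4%, 65.3% and 64.2% on PRH-labelled arrays 1, 2, 3 and 5. The groups did not overlap. Nor did they over all non-control probes, with 64.17% to 69.76% above background on controls and 72.22% to 73.9% on PRH-labelled arrays. Of the 932 probes one array short, 801 missed a control array, 453 of them control 3 and 248 control 2, and 131 missed a PRH-labelled array. The set therefore leaves out probes that stood higher in the PRH-labelled arrays and faint in a control.

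The interval probes as a body stood higher in PRH-labelled tumours relative to the rest of the same array. Their median level on that log2 scale was -2.45, -2.80, -2.76 and -2.55 in the 4 controls and -2.04, -1.99, -2.02 and -1.88 in the PRH-labelled arrays. Every PRH-labelled array was above every control. Before any scaling, their median signal was 183.5, 184.2, 159.6 and 171.7 in controls and 164.6, 191.9, 171.3 and 204.6 in PRH-labelled arrays, and there the groups overlapped. What moved between the groups on the unscaled intensity was the 75th percentile itself, 1003 to 1283 in controls and 679.1 to 761.5 in PRH-labelled arrays. The distance from the median interval probe to the median NM_ probe of the same array, which no single scaling factor can change, was -2.61, -3.13, -3.06 and -2.84 in controls and -2.12, -2.10, -2.12 and -1.95 in PRH-labelled arrays. On this measure too the groups did not overlap, and the interval probes lay nearer to the mRNA probes on every PRH-labelled array.

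**Figure D1:**
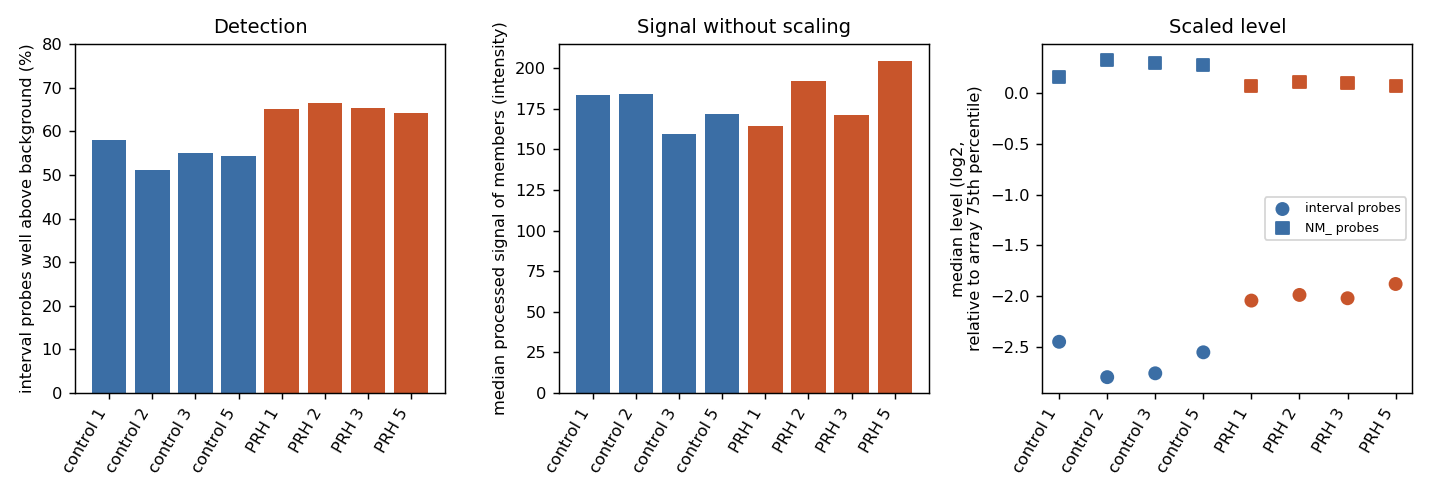
Values for each array, controls in blue and PRH-labelled arrays in orange: the percent of interval probes above background, the median unscaled signal of the 6735 well-detected interval probes, and their median scaled level (circles) beside that of NM_ probes (squares), on the log2 scale. Detection and scaled level separate the groups, while the unscaled medians of 159.6 to 204.6 overlap.

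Probe by probe, the median difference between PRH-labelled and control arrays was 0.68 on the log2 scale (25th and 75th percentiles 0.18 and 1.08). Of the 6735 probes 5470 (81.2%) lay above 0, against 63.2% of all tested items. In the limma fit over all 34543 tested items, 1990 interval probes (29.5%) were called higher and 228 (3.39%) lower at an adjusted p of 0.05, against 17.2% and 8.67% of all tested items and a median difference of 0.29. The values of the groups did not overlap for 2195 probes in the higher direction (32.6%, against 20.1% of all items) and for 283 in the lower (4.2%, against 11.3%). Probes of curated mRNAs on all 8 arrays went the other way, with a median of -0.09, 9.84% called higher and 14.5% lower. Between them stood curated noncoding RNAs (accessions starting with NR_), with a median of 0.29 and 21% called higher and 4.94% lower, and Ensembl transcripts, with 0.34, 21.7% and 7.35%. With mouse number as a block, 2934 interval probes were called higher (43.6%) and 236 lower, against 26.9% and 8.54% of all items.

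How far the interval probes moved depended on the scaling, while their place relative to other items did not turn. Their median difference was 0.22 with arrays centred on their medians, 0.35 with quantile-normalized signals, 0.24 once normexp background correction preceded that step, and 0.27 in the authors' deposited values. The median over all items moved with these choices, from 0.29 to -0.18, 0.07, 0.06 and 0.06. Relative to that median the interval probes stood 0.40 higher with the 75th percentile, 0.40 for median-centred, 0.27 for quantile-normalized, 0.18 for normexp-corrected and 0.22 for the authors' values. Median centring called 1094 higher and 673 lower, against 8.47% and 22% of all items. Quantile-normalized signals gave 1477 and 504 (all items 12.3% and 12.8%). Normexp gave 1351 and 437 (10.8% and 12.6%), and the authors' deposited values 1330 and 476 (10.6% and 12.7%). On signals with no scaling at all, 763 were called higher and 900 lower, against 5.96% and 29.5% of all items. The share of interval probes above 0, 81.2% with the 75th percentile, was 62% with median centring and 55.4% with no scaling. Centring on spike-in probes ended every call of an interval probe and left 1 call among all items. All 5 scalings gave the same call for 934 probes in the higher direction (13.9%, against 5.89% of all items) and 215 in the lower (3.19%, against 7.71%).

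The 934 lay in 732 intervals, 584 of which held only 1 of them, and the 215 lay in 163 intervals, 123 with only 1. Their median differences were 1.29 and -0.90. Leaving out 1 array changed the counts of calls, of the interval probes and of all items. The 1990 higher calls with all arrays ran from 1499 to 2136 when 1 array was left out, and the 5938 over all items from 4152 to 6688. The 228 lower calls became 329 without control 1, 127 without control 2, 164 without control 3 and 102 without control 5. They became 118, 131, 140 and 144 without PRH-labelled array 1, 2, 3 and 5. Over all items, the 2996 lower calls became 4779 without control 1, 1587 without control 2, 2015 without control 3 and 1536 without control 5. They became 1581 to 1800 without any 1 of the PRH-labelled arrays. Control 1 stood nearest to the PRH-labelled arrays in the median of the interval probes, and leaving it out raised the probes called in all 5 scalings from 934 to 1125. Without another array, the number higher in all 5 scalings was 425 (control 2), 568 (control 3), 395 (control 5), 371 (PRH-labelled 1), 589 (PRH-labelled 2), 544 (PRH-labelled 3) or 486 (PRH-labelled 5). The number lower was 108 without control 2, 150 without control 3 and 88 without control 5. It was 107 without PRH-labelled 1, 123 without PRH-labelled 2, 129 without PRH-labelled 3 and 132 without PRH-labelled 5. Over all items, calls held in 5 scalings went from 2034 higher and 2663 lower to 2638 and 3878 without control 1. They went to 888 and 1310 without control 2, to 1184 and 1718 without control 3, and to 797 and 1302 without control 5. Without a PRH-labelled array they were 758 to 1214 higher and 1393 to 1536 lower, so the change in counts was not confined to the interval probes. Each of these fits also had 1 array fewer, and what that alone does to the counts was not tested.

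Interval probes are dimmer than mRNA probes, so both were also set side by side in 10 equal classes of mean signal over all probes detected on 8 arrays. In the dimmest class, with signals of 23 to 72, 1303 interval probes had a median difference of 0.53 and NM_ items one of 0.12. In the fifth, with signals of 300 to 518.5, the medians were 0.76 and -0.12, and in the sixth 0.73 and -0.27. In the brightest class, from a signal of 10500 upward, 127 interval probes had a median of 0.36 against 0.08. The interval probes stood higher in all 10 classes, by 0.28 to 0.99, and by 0.23 to 0.94 in the authors' deposited values. In those values the dimmest interval probes had a median of -0.02. The share of interval probes called higher in all 5 scalings was 7.06% in the dimmest class, 22.1% in the seventh and 5.51% in the brightest. Among NM_ items of the same classes it was 4.41%, 2.09% and 0.467%.

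**Figure D2:**
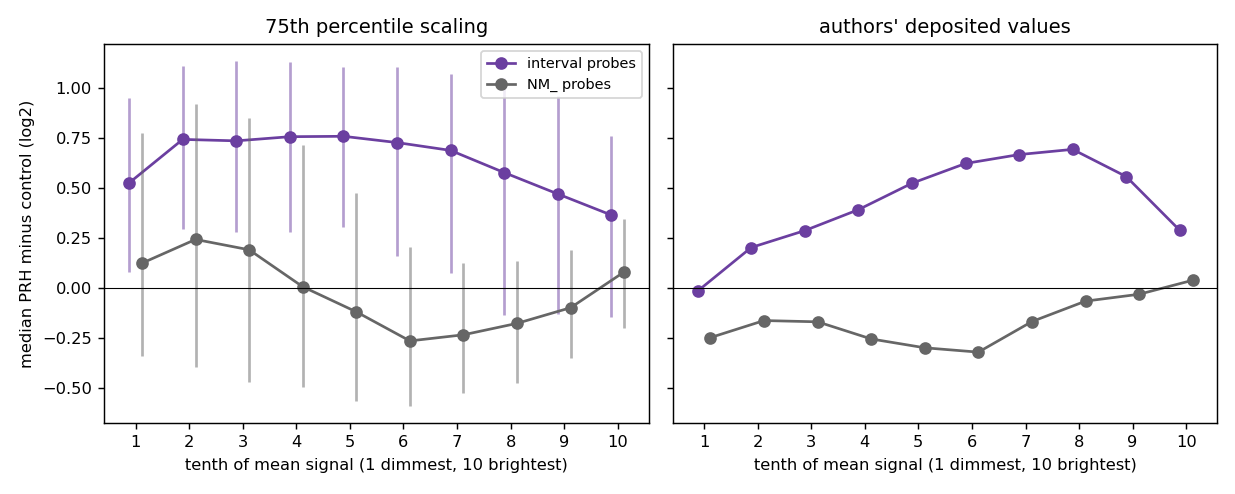
Median log2 difference, PRH-labelled minus control, by class of mean signal for interval probes and NM_ items, with 75th percentile scaling (left, lines spanning the 25th to 75th percentile) and in the authors' deposited values (right). The interval probes lie above the NM_ items in all 10 classes of both panels, most widely in the sixth.

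Both strand suffixes shared the pattern. Of 8171 F probes 39.6% were detected on all 8 arrays, and of 8010 R probes 43.7%. The 3235 F probes in the set had a median difference of 0.75, with 31.7% called higher and 3.34% lower, and the 3500 R probes one of 0.63, with 27.5% and 3.43%. Over all tested items the median was 0.29, with 17.2% called higher and 8.67% lower. No test was made between the suffixes, since probes are not replicates of a condition.

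All 20 chromosomes on which the probes lay had a median difference above 0, from 0.58 on chromosome 16 to 0.86 on chromosome 15. The medians were also above 0 on all 20 in the authors' deposited values (0.19 to 0.43) and after median centring. Detection varied more: 50.6% of interval probes on chromosome 17 and 50.0% on chromosome 19 passed on all 8 arrays, against 34.9% on chromosome 9, 35.3% on chromosome 10 and 35.7% on the X chromosome. The share of probes called lower ran from 1 of 257 on chromosome 9 (0.389%) to 23 of 319 on chromosome 14 (7.21%), against 3.39% of the whole set and 8.67% of all tested items. Even the chromosome 14 share was thus below that of all items. The 23 on chromosome 14 were spread over 17 interval strands. Probes on a chromosome share neighbouring transcripts, and no test was made between chromosomes.

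**Figure D3:**
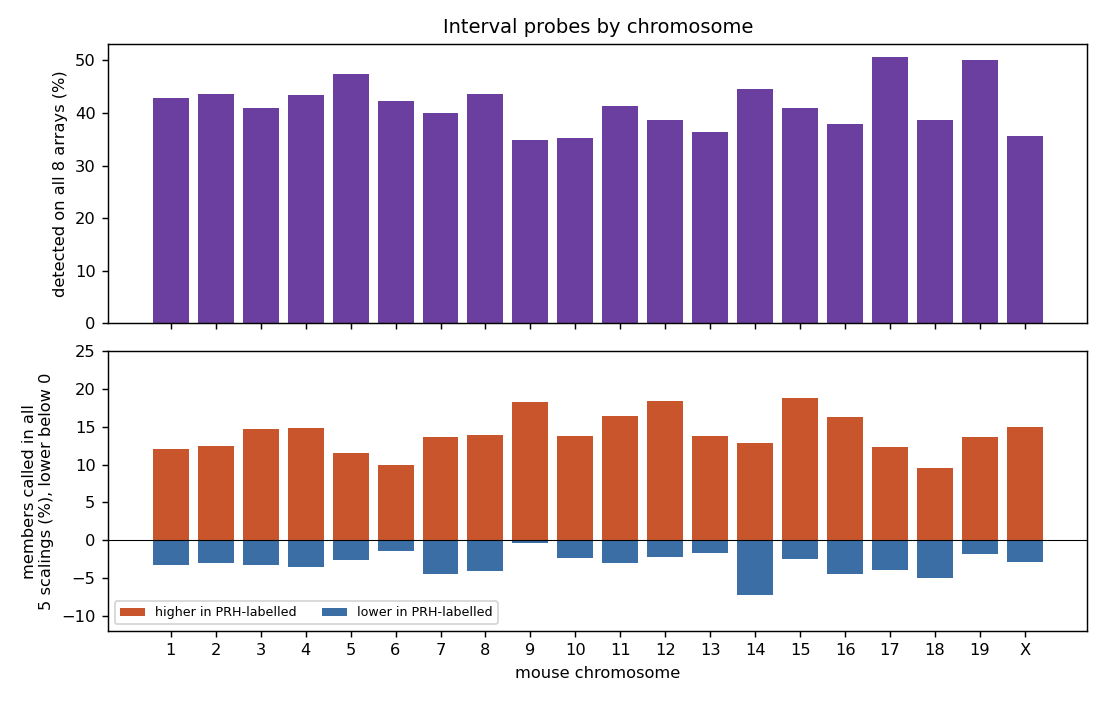
For each chromosome, the percent of interval probes detected on all 8 arrays, and the percent of those detected that were called in all 5 scalings, higher above 0 and lower below it. Detection was highest on chromosomes 17 (50.6%) and 19 (50.0%) and lowest on chromosome 9 (34.9%).

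Values were also set out by interval length. Intervals holding a detected probe ran from 62 to 538251 bases with a median of 9669. Detection was 34.4% for probes in intervals of up to 1000 bases and 40.5% to 45.7% in longer classes. The median difference was lowest, at 0.47, in intervals of 1000 to 5000 bases and lay between 0.61 and 0.74 elsewhere.

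An interval is often sampled by several probes. Of the intervals in the set, 1509 held 2 or more detected probes (5718 probes in all) and 57 held 10 or more. Detection within an interval was usually partial: 1895 of 3112 intervals with 2 or more probes had some but not all in the set, and 431 had all. Probes of the same interval and strand tended to move alike. Among 1706 interval strands with 2 or more detected probes, 1237 (72.5%) had all differences of 1 sign, and the SD of the difference was 0.47 within them against 0.66 over all interval probes. Opposite calls within an interval strand occurred in 21 (1.23%). Both shares start from a set in which 81.2% of probes lay above 0 and only 3.39% were called lower.

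Across strands that likeness was not seen. Taking 1 pair of probes for each of the 1706 interval strands, their differences correlated with Pearson's r = 0.481, while 1 F and 1 R probe of an interval gave r = -0.0124 over 667 intervals. Overlapping neighbouring intervals gave r = 0.341 for probes of the same suffix (785 pairs) and -0.00554 for opposite suffixes (735 pairs). These correlations run across probes that share the same 8 arrays and in part the same bases, and they are descriptions. For the pairs within an interval, the levels of the probes gave r = 0.41 on 1 strand and 0.0471 across strands. Whether likeness in level bears on the contrast was not tested. The same-sign shares, 80.8% on 1 strand and 75.6% across strands, start from a set in which 81.2% of probes lay above 0. Where F and R probes were both on the array (1067 intervals), both strands were detected in 667 (62.5%), F alone in 157, R alone in 166 and neither in 77. In 35 intervals 1 strand was detected on every array and the other on none.

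**Figure D4:**
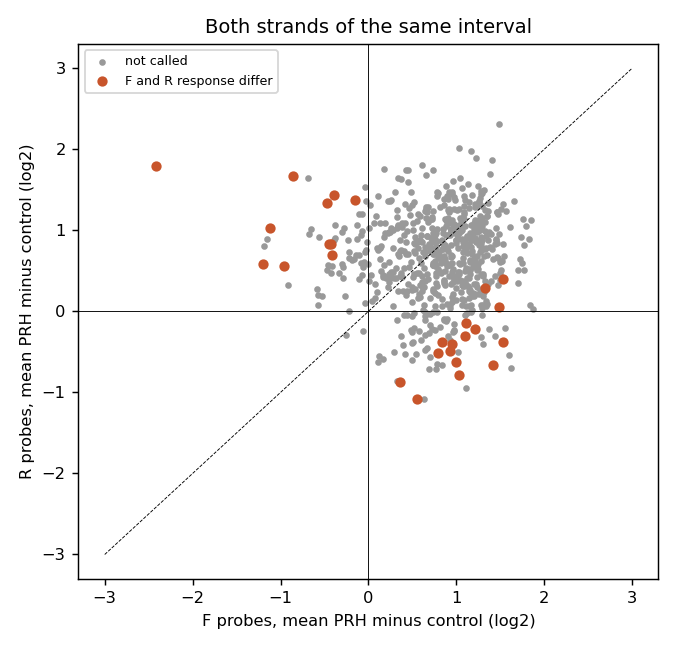
Each point is 1 of 667 intervals with detected probes of both suffixes, placed by the mean log2 difference, PRH-labelled minus control, of its F probes and of its R probes; orange points are intervals in which the F minus R difference changed between the groups. The cloud shows no slope, and 525 of 667 intervals have both means on the same side of 0.

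The response of F probes against R probes of an interval was tested within arrays, where any scaling by 1 factor an array cancels. Of 895 intervals with probes of both suffixes past the detection filter, 38 changed in their F minus R difference (4.25%), and 27 of these were among the 667 with both sides in the set, 16 with the F side higher and 11 with it lower, against 2.68% and 1.56% of all 895. At an unadjusted p under 0.05 there were 202. The count was fragile: it was 127 with mouse number as a block, 9 after quantile normalization, 0 with background-subtracted signal that lacks the spatial correction, 63 without control 1, and 0 without any 1 of the other 7 arrays.

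The smallest p belonged to chr11:35805295-35817263. Its F probe A_30_P01024472 read 3.66, 5.18, 5.25 and 5.14 in controls and 2.45, 2.61, 2.00 and 2.48 in PRH-labelled arrays. Its R probe A_30_P01017641 read -3.41, -4.81, -4.61 and -4.77 in controls and -2.56, -2.83, -2.40 and -2.66 in PRH-labelled arrays. The F probe fell by 2.42 and the R probe rose by 1.79 with no overlap on either side, and F minus R changed by -4.21 (SE 0.658, adjusted p = 0.0393). On both probes control 1 lay nearest to the PRH-labelled arrays.

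The other 3 intervals named by this test were smaller. At chr1:182180931-182186106, with 1 F and 4 R probes in the set, the change was 1.57 (SE 0.246, adjusted p = 0.0393). F minus R was -2.10, -1.93, -1.78 and -2.33 in controls and -0.46, -0.70, -0.48 and -0.23 in PRH-labelled arrays. The change was 1.40 with only the probes detected on all 8 arrays, 0.67 with normexp and 0.88 in the authors' values, all still called. At chr5:35893909-35899497 the change was -1.94 (SE 0.32, adjusted p = 0.0395), from 1.62, 1.46, 2.47 and 2.17 in controls to 0.00, -0.43, 0.02 and 0.37. It was -2.15 with only the probes detected on all 8 arrays and -1.18 with normexp. At chr11:5387350-5403150 it was 2.08 (SE 0.353, adjusted p = 0.0395), from -0.71, -2.13, -1.95 and -1.93 to 0.46, 0.42, 0.56 and 0.15, though without the detection filter it was 1.10 with an adjusted p of 0.213. The groups did not overlap in any of the 4 intervals. All 4 lost the call, with adjusted p up to 0.114, in 7 of the 8 fits that leave out 1 array, and had an adjusted p of 0.0542 with background-subtracted signal.

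Among probes that changed the same way in all 5 scalings with no overlap between groups (933 higher, 197 lower), the largest rise was that of A_30_P01023885 at chr1:63264155-63345773 (R). It read -1.90, -3.11, -2.88 and -3.01 in controls and -0.70, 1.20, 1.51 and -1.49 in PRH-labelled arrays, a rise of 2.85 (SE 0.697, adjusted p = 0.0222). PRH-labelled arrays 2 and 3 stood well above arrays 1 and 5, so the PRH-labelled tumours were spread over more than the gap between the groups. The call was lost without control 2 (adjusted p = 0.0617), control 3 (0.053), control 5 (0.0599) or PRH-labelled array 2 (0.0561). Of the other 3 detected probes of the interval, 2 were called higher, both R, at 1.10 each.

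A_30_P01020940 at chrX:90997595-91009570 (F) read -0.75, -1.66, -1.59 and -1.83 in controls and 0.58, 1.04, 1.34 and -0.25 in PRH-labelled arrays, a rise of 2.14 (SE 0.387, adjusted p = 0.0092). It stood alone in its interval. None of the other 10 detected probes there was called higher, and 2 R probes were called lower, A_30_P01022054 by -0.90 and A_30_P01025876 by -1.52.

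In the next pair of probes the PRH-labelled values were closely grouped. A_30_P01020768 at chr14:99729955-99730583 (F) read -1.45, -1.98, -1.69 and -1.02 in controls and 0.63, 0.51, 0.54 and 0.41 in PRH-labelled arrays, a rise of 2.06 (SE 0.212, adjusted p = 0.00686). The only other detected probe of that interval, A_30_P01032838 on the same strand, differed by 0.51 without a call (adjusted p = 0.762). A_30_P01030642 at chr11:120079199-120130099 (R) read -0.76, -1.47, -1.28 and -0.86 and then 1.24, 0.94, 1.00 and 0.66, a rise of 2.05 (SE 0.21, adjusted p = 0.00686). In the latter interval 2 of the other 5 detected probes, 1 on each strand, were also called higher.

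The rise at chr16:4525147-4542122 was, of these 8, the one most widely shared within its interval. A_30_P01022116 (F) read -0.87, -1.86, -1.36 and -0.77 in controls and 0.97, 0.87, 0.79 and 0.52 in PRH-labelled arrays, a rise of 2.00 (SE 0.258, adjusted p = 0.00686). Its 4 companions differed by 1.08 to 1.44, and 3 of them, on both strands, were called higher.

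The remaining 3 large rises had limits of their own. A_30_P01021587 at chr8:94841965-94881130 (F) read -2.94, -4.31, -3.67 and -4.13 in controls and -1.20, -2.45, -1.66 and -1.66 in PRH-labelled arrays, a rise of 2.02 (adjusted p = 0.00928), and was the only detected probe of 10 in its interval. For this faint probe the rise was 1.02 with normexp and 1.20 in the authors' values, both still called. A_30_P01017459 at chr11:119794849-119803349 (F) read 0.07, -0.88, -2.70 and -0.24 in controls and 1.42, 0.97, 1.20 and 1.20 in PRH-labelled arrays, a rise of 2.14 (adjusted p = 0.0288). A_30_P01027941 at chr16:40592137-40594284 (F) read -1.07, -2.22, -3.73 and -1.87 and then 0.15, -0.41, -0.25 and -0.28, a rise of 2.02 (adjusted p = 0.0254). In these last probes control 3 was far below the other controls. Without it the rises were 1.55 for A_30_P01017459 and 1.52 for A_30_P01027941, with adjusted p of 0.019 and 0.0219. With no scaling both lost the call (adjusted p of 0.0567 and 0.0532). Both calls were also lost without control 2 (0.0673 and 0.063) and without any 1 of the 4 PRH-labelled arrays (at most 0.0726 and 0.0679), and that of A_30_P01027941 also without control 5 (0.0516).

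The largest fall was at chrX:138967807-138968413, a short interval of 607 bases. A_30_P01031213 (R) read 2.00, 3.62, 3.65 and 3.57 in controls and 0.60, 0.67, 1.10 and 0.73 in PRH-labelled arrays, a fall of 2.44 on the log2 scale (-2.44, SE 0.385, adjusted p = 0.00738). The other detected probe of that interval and strand, A_30_P01021065, differed by 0.01 (adjusted p = 0.979). The F probe at chr11:35805295-35817263 described above, A_30_P01024472, fell nearly as far, by -2.42 (SE 0.374, adjusted p = 0.0072).

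A pair of falls came from 1 place on chromosome 5, where the interval chr5:31883451-31884082 lies inside chr5:31856417-31916414. In the inner interval A_30_P01029641 (F) read -2.87, -1.40, -0.35 and -1.43 in controls and -3.19, -3.81, -4.68 and -3.77 in PRH-labelled arrays (-2.35, SE 0.542, adjusted p = 0.0184; 0.0506 without control 2). In the outer one A_30_P01030209 (F) read -3.02, -1.83, -1.05 and -1.96 and then -3.44, -4.59, -4.09 and -4.50 (-2.19, SE 0.438, adjusted p = 0.0118; -1.43 with normexp). Both probes ordered the controls alike, with control 3 highest and control 1 lowest. The other 3 detected probes of the outer interval differed by 0.24 to 0.92 and none was called.

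A fall shared by its neighbours was that at chr7:128341797-128414692. A_30_P01020072 (R) read 1.56, 2.59, 2.86 and 2.76 in controls and 0.75, 0.85, 0.89 and 0.82 in PRH-labelled arrays (-1.61, SE 0.286, adjusted p = 0.00881). The other 4 R probes were also called lower, by -0.43 to -0.99, and none of the 4 F probes was called, at 0.10 to 0.75. The lower calls of this interval were thus all on its R side.

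The other 3 falls were smaller or fainter. A_30_P01026566 at chr18:6201019-6201758 (R) read -3.02, -1.68, -1.45 and -1.62 in controls and -4.02, -4.21, -4.23 and -3.81 in PRH-labelled arrays (-2.12, adjusted p = 0.00756). A_30_P01030178 at chr8:27912000-27992750 (F) read -0.40, 0.61, 0.47 and 0.80 and then -1.22, -1.44, -1.28 and -1.20 (-1.65, adjusted p = 0.00738), and 1 of its 4 companions was called lower. A_30_P01029826 at chr18:32389816-32394927 (F) read -1.41, -3.13, -3.06 and -2.60 and then -4.25, -4.14, -4.17 and -4.13 (-1.62, adjusted p = 0.0171), and 1 of its 5 companions was called lower. In 7 of the 8 falls control 1 was the control nearest to the PRH-labelled values, and in A_30_P01029826 it was the farthest.

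**Figure D5:**
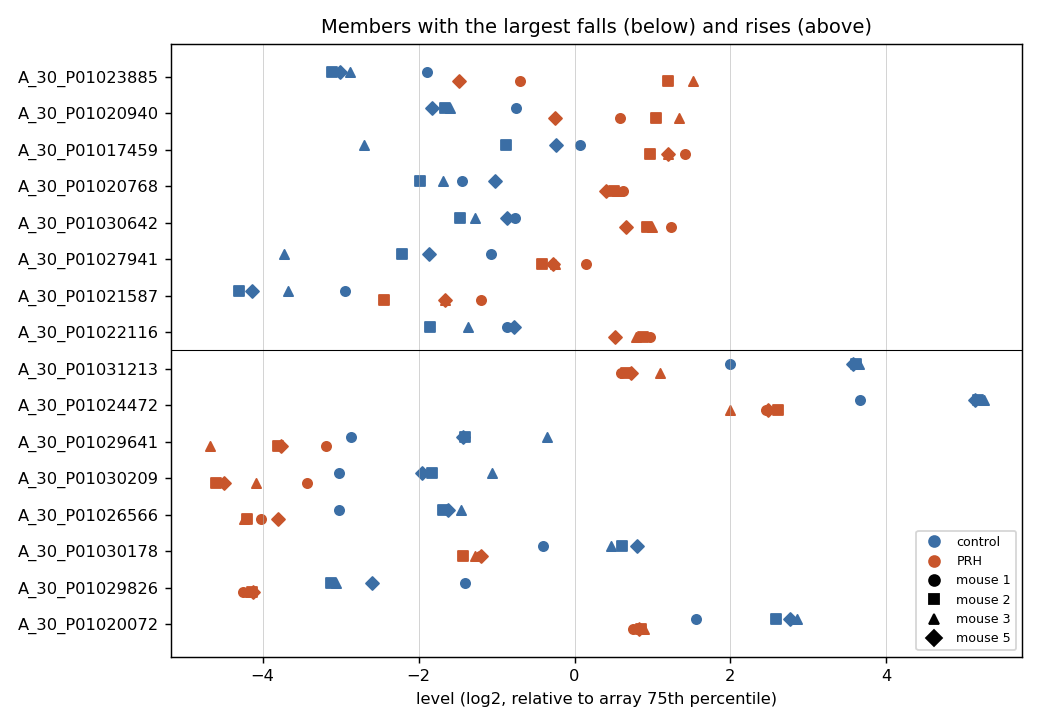
Level of each of the 8 largest rises (above) and 8 largest falls (below) on every array (log2, scaled to the 75th percentile of the array), controls in blue and PRH-labelled arrays in orange, with the marker shape giving the mouse number. The groups do not overlap in any of the 16 probes; control 1 sits apart from the other controls in A_30_P01031213, A_30_P01024472 and A_30_P01026566.

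The 6 brightest interval probes differed between the groups by -0.00 to 1.18, and their calls depended on the scaling. Of the 6 with the highest mean signal, 4 lay on chromosome 17 and 3 of these in a group of 5 overlapping or adjacent intervals between 39960567 and 39992817. All 20 interval probes of that group were in the set. Their median level was 4.66, 5.06, 4.84 and 4.66 in controls and 5.42, 5.33, 5.32 and 4.76 in PRH-labelled arrays. On this median over both strands PRH-labelled array 5 fell among the controls. The F probes alone had medians of 5.97 to 6.44 in controls and 6.47 to 6.88 in PRH-labelled arrays, without overlap. For the R probes PRH-labelled array 5 (4.54) lay just under control 2 (4.55) and above the other controls. Over all 20 probes the median difference was 0.46, below the 0.68 of the whole set. After median centring it was -0.00, and in the authors' deposited values 0.33. Of the 20 probes 7 were called higher, against 29.5% of the whole set and 17.2% of all tested items. None was called in all 5 scalings, against 13.9% of the set called higher in all 5.

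The single brightest probe, A_30_P01026458 at chr11:22681800-22707775 (R), read 7.62, 7.62, 7.82 and 7.68 in controls and 8.15, 8.12, 8.29 and 8.06 in PRH-labelled arrays. Its difference was 0.47 (SE 0.12, adjusted p = 0.026), but 0.14 after quantile normalization, 0.00 after median centring, -0.04 with normexp and -0.01 in the authors' values, and the call ended with each of these. It also ended with background-subtracted signal (0.33, adjusted p = 0.0743), and leaving out control 2 (adjusted p = 0.067), control 5 (0.0699) or any 1 PRH-labelled array (0.0553 to 0.0692) did the same. Both F probes of the same interval were called higher, at 0.90 and 1.70. A_30_P01031448 at chr14:78924115-78938125 (F) read 7.25, 6.85, 7.36 and 6.91 in controls and 8.84, 7.85, 8.41 and 7.99 in PRH-labelled arrays, a rise of 1.18 (SE 0.248, adjusted p = 0.0136). With median centring the difference was 0.71 (adjusted p = 0.0606) and with no scaling 0.58 (0.0782), which ended the call. Of its 6 companions 2 were called higher.

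The 3 bright probes within the chromosome 17 group were A_30_P01020514, A_30_P01023029 and A_30_P01020015, all F. A_30_P01020514 at chr17:39983902-39985688 rose by 0.73 (SE 0.135, adjusted p = 0.00968) with 75th percentile scaling. It was 0.42 after quantile normalization (adjusted p = 0.043), and the call ended with median centring (0.26, adjusted p = 0.296), normexp (0.28, 0.123), the authors' values (0.29, 0.139) and no scaling (0.13, 0.597). A_30_P01023029 of the same interval differed by 0.44 (adjusted p = 0.0539) and A_30_P01020015 at chr17:39982023-39983277 by 0.37 (adjusted p = 0.193), and after median centring these read -0.03 and -0.09. Apart from that group, A_30_P01022075 at chr17:17481706-17482457 (R) read 7.22, 7.35, 7.66 and 7.32 in controls and 7.40, 7.51, 7.37 and 7.24 in PRH-labelled arrays, with overlapping groups and a difference of -0.00 (SE 0.142, adjusted p = 0.992). Under the other 4 scalings it read -0.24 to -0.47 without a call, and with no scaling -0.60 (adjusted p = 0.0382).

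The most densely probed intervals each had 17 detected probes and differed in how their strands behaved. At chr11:3538125-3554450 all 10 F probes lay above 0 (median 0.99, 5 called higher) and all 7 R probes below 0 (median -0.64, 2 called lower). The median of its F probes was -2.32, -2.78, -2.16 and -2.22 in controls and -0.90, -1.08, -0.88 and -1.22 in PRH-labelled arrays, and that of its R probes -3.22, -2.90, -3.09 and -2.75 and then -4.15, -3.98, -3.93 and -3.68. Neither side overlapped between groups, and F minus R changed by 1.64 (SE 0.283, adjusted p = 0.0395). As for all 38 intervals above, the call was lost without control 2, 3 or 5 or any 1 PRH-labelled array.

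At chr8:72663625-72673010 all 9 R probes lay above 0 (median 0.77, 5 called higher), while the 8 F probes had a median of 0.23 and none was called. The median of the R probes was -1.32, -1.90, -2.13 and -1.56 in controls and -0.73, -0.71, -0.80 and -0.64 in PRH-labelled arrays, without overlap. The F minus R change of -0.67 did not pass the test (SE 0.254, adjusted p = 0.156). At chr5:74487385-74497428 the 10 F probes had 4 called higher and 1 lower with a median of 0.04, and the 7 R probes 3 called higher with a median of 1.23. There too the F minus R change missed the threshold (-0.76, SE 0.257, adjusted p = 0.117).

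Agreement of every detected probe was rare. Among 969 interval strands with 3 or more detected probes, 5 had all of them called higher in all 5 scalings and 2 all called lower; these 7 were picked out after their values were seen. The best sampled was chr4:146507925-146532650, where all 5 R probes were called lower, by -0.70 to -1.41. Their median level was 1.06, 1.56, 1.65 and 1.30 in controls and 0.45, 0.79, 0.24 and 0.41 in PRH-labelled arrays. The other with 3 lower calls was chr17:22422837-22451777 (R), with a median difference of -0.72.

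The 5 strands with every detected probe called higher, 3 probes each, were chr8:106592650-106603525 (R, median 1.10), chr12:12768528-12849976 (F, 1.31), chrX:98680220-98718445 (R, 1.36), chr10:60473030-60535340 (R, 1.49) and chr2:174088550-174109425 (F, 1.53). In that order the array carried 3, 5, 5, 10 and 10 probes of these strands, so in the last 4 some probes were not in the set. For the last of these the median level was -2.98, -3.69, -3.67 and -3.28 in controls and -2.22, -2.15, -2.13 and -2.03 in PRH-labelled arrays. Its 3 detected R probes differed by 0.73, 0.90 and 1.24. For chr10:60473030-60535340 the 4 detected F probes also lay above 0, at 0.21 to 1.52.

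Among intervals with the most calls, also picked out after their values were seen, chr15:82037381-82048125 had 5 of 8 detected probes higher in all 5 scalings, 3 F and 2 R, with all 8 between 0.80 and 1.71. At chr3:19179899-19216399 it was 5 of 11, with all 11 above 0. At chr16:46384974-46391331 4 of 5 R probes were lower in all 5 scalings, by -1.09 to -1.61. The median level there was -3.52, -2.76, -2.10 and -2.87 in controls and -4.01, -3.86, -4.54 and -4.17 in PRH-labelled arrays, without overlap.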

How the data were processed

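Spot intensities on a linear scale were deposited by the authors. Their headers name Agilent Feature Extraction 10.7.3.1 and a design placed on mm9, per the file headers (9.1 per the submitters' processing notes). The processed signal and the above-background flags are columns of that software's output, per the file headers. The authors' deposited normalized values have a linear intensity scale; its background correction and offset are unknown.

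Here log2 of processed signal minus each array's 75th percentile over non-control spots was fitted with limma 3.58.1 (R 4.3.3), with Benjamini-Hochberg adjustment over 34543 items above background on at least 4 of 8 arrays: named genes by their brightest probe, and every interval probe by itself. Normexp (offset 50) used median spot signals. F minus R was fitted likewise over 895 intervals. Fits were tested on simulated data. Precision is limited by the 4 arrays in each group, and p-values reflect only the spread among these tumours.

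The probes and lists were chosen with earlier results of these data known. Probes named were the 8 largest rises and 8 largest falls called in all 5 scalings and without overlap at the 75th percentile scaling, the 6 brightest, the 3 intervals with most detected probes, the 4 smallest p of F minus R, and up to 2 examples beside the detection limit. Same-numbered arrays deviated together (r = 0.203, 0.436, 0.665 and 0.274 for mouse numbers 1, 2, 3 and 5), although numbers and slide rows coincide. The main fits nevertheless left mouse number out. Only the fits with mouse number as a block used it, so all other counts and p-values ignore any pairing. Alternatives were scaling, filter, mouse block, variance trend and leaving out each array.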

Additional observations from a re-analysis of the deposited data

Results flagged for a closer look

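Among the named probes and intervals, 56 groups of 4 arrays were examined. In 5 of them 1 array lay apart from the other 3 by more than Dixon's 95% critical share of the group's range. For independent groups chosen beforehand, chance does so in about 1 group in 20. Many of these groups were chosen by these same values and some share a probe, so that rate does not apply to them. All 5 concern control 1. On A_30_P01031213 it read 2.00, with the other controls at 3.57 to 3.65. On A_30_P01024472 it read 3.66, with the others at 5.14 to 5.25. On A_30_P01026566 it read -3.02, with the others at -1.68 to -1.45. The F minus R difference was 7.07 on control 1 at chr11:35805295-35817263, where the other controls were at 9.86 to 9.99, and -0.71 at chr11:5387350-5403150, where they were at -1.93 to -2.13. Control 1 lay on the side of the PRH-labelled arrays each time.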

How the results depend on the processing

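The interval probes kept a median difference above 0 in every alternative run, but not its size: 0.22 with median centring, 0.35 with quantile normalization, 0.24 with normexp, 0.27 in the authors' values, 0.092 with no scaling, and 0.60 to 0.74 when 1 array was left out. The 1990 higher calls became 1094 with median centring, 763 with no scaling and 0 with spike-in centring, where limma called 1 of all items. Without 1 array they ran from 1499 to 2136. The 228 lower calls became 673 with median centring, 504 with quantile normalization, 437 with normexp, 476 in the authors' values, 900 with no scaling, 0 with spike-in centring, and 102 to 329 without 1 array. Calls in all 5 scalings ran from 371 to 1125 higher and 88 to 288 lower without 1 array. The 38 intervals whose F minus R difference changed became 9 with quantile normalization, 60 with the filter of all 8 arrays, 127 with the replicate block, 0 with background-subtracted signal, and 0 to 63 without 1 array. The replicate block changed no call of the 26 named probes and intervals. Over these, 405 of 504 alternatives kept direction and call, 85 lost the call, 4 gained it and 10 turned the sign. The sign turned for A_30_P01026458 with normexp (-0.043), the authors' values (-0.0072) and no scaling (-0.13); for A_30_P01023029 with median centring (-0.027) and no scaling (-0.15); for A_30_P01020015 with the same settings (-0.095 and -0.22); and for A_30_P01022075 without control 3, PRH-labelled array 3 or PRH-labelled array 5, its values without 1 array running from -0.058 to 0.088. The cause was not tested. No scaling, background-subtracted signal and leaving out an array in all 5 scalings were chosen after seeing the data.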
